A study of Arabidopsis thaliana with 9 samples.

Results

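GH3.1, GH3.3, WES1 (also named GH3.5, AT4G27260) and GH3.17 of Arabidopsis thaliana were followed in roots fixed during a jet flight and on the ground. They were named as a set of GH3 family genes with earlier results of these data known, and are 4 of the 6 listed GH3 genes that had a probe set paired with exactly 1 gene, the others being GH3.4 and GH3.9. Each of the 4 genes had 1 such probe set, of 16722 probe sets paired with exactly 1 gene and 38408 in all. GH3 enzymes are acyl-acid-amido synthetases, which join plant hormones to amino acids. Several of them join indole-3-acetic acid, the main auxin, to aspartate or glutamate, which lowers the pool of active hormone. Many GH3 genes are themselves induced by auxin, so the enzymes act in a feedback loop on auxin level, including in roots, where auxin guides gravitropic bending and lateral root formation.

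Last-actuated roots, first-actuated roots and ground control roots each gave 3 arrays, read on the AraGene 1.0 ST platform. In all groups the plants were 10-day-old seedlings in the Wassilewskija (WS) background that carried pCaMV35S:14-3-3κ:GFP, a fusion of 14-3-3κ to GFP under the broadly active viral promoter named in the construct. They had grown under 24 h light and were fixed with RNAlater inside Kennedy Space Center fixation tubes. No group without the transgene was compared here. In the protocol given with the samples, low-altitude acceleration is when the first-actuated tube was triggered, and the last-actuated tube followed a climb at 4 g of about 30 s and about 10 s of microgravity. The design text puts actuation in flight about 1.5 min after level flight had resumed and names no tube, so the early timing of the first tube comes from the protocol alone. The in-flight tubes travelled in a flight suit and the ground tube in a person's hands. All 3 arrays of a group came from the roots of 1 tube, so tube and condition cannot be told apart, and the p-values measure only the spread between root samples of a tube.

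Values are log2 signals after RMA, a normalization that equalises the arrays, and a difference of 1 is a doubling. Array medians were 3.27 to 3.35, and arrays correlated at 0.98 to 0.9895. The 4 genes lay above the median of each of the 9 arrays, GH3.1 by 1.26 to 2.65, GH3.17 by 2.42 to 3.82, GH3.3 by 2.66 to 5.92 and WES1 by 4.59 to 5.61. Levels of different genes are not compared with each other, because probe sets differ in brightness. In whole roots, fewer cells of a type and less RNA per cell cannot be told apart. Of 9 root epidermis and root hair markers 2 had a named probe set, and both were present above the array medians, EXPA7 at 4.53 to 5.54 and EXPA18 at 5.81 to 6.45. Markers of cortex, endodermis, stele, root cap and meristem had none and were not used here.

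The GH3.3 enzyme joins auxin to amino acids, and transcript signal of its gene fell in both in-flight groups and was lowest after the parabola. Its signal was 6.45, 6.19 and 5.93 in last-actuated roots, 7.38, 6.72 and 7.10 in first-actuated roots, and 9.24, 8.72 and 8.44 in ground roots. The 3 groups did not overlap, and the lowest ground array stood above each in-flight array. Group means were 6.19 ± 0.26 in last-actuated, 7.07 ± 0.33 in first-actuated and 8.80 ± 0.41 in ground roots (SD, n = 3 each). GH3.3 fell by 2.61 ± 0.22 (SE) on the log2 scale in last-actuated roots relative to ground, to 0.164 of the ground level (95% interval 0.116 to 0.232, adjusted p = 0.000299). That was the largest decrease among all 17481 probe sets tested in that comparison. In first-actuated roots it fell by 1.73 ± 0.22, to 0.301 of the ground level (95% interval 0.213 to 0.425, adjusted p = 0.00198), in sixth place among the decreases. These adjusted p-values come from limma with Benjamini-Hochberg adjustment over all 17481 probe sets, as do those that follow. Both comparisons use the same 3 ground arrays.

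The last-actuated roots also had less GH3.3 signal than the first-actuated roots, by log2 -0.88 ± 0.22 (0.544 of the first-actuated level, 95% interval 0.385 to 0.769, adjusted p = 0.0445). This comparison is the test of whether the decreases of the in-flight groups against ground differed in size. The call was close to the threshold of 0.05. It was lost when 1 array was left out in 6 of 9 cases, namely ground replicate 2, first-actuated replicates 1 and 3, and last-actuated replicates 1, 2 and 3 (adjusted p = 0.0582 to 0.162, with changes of -1.05 to -0.72 over all 9 cases). It was also lost with only the in-flight groups in the fit (adjusted p = 0.0503) and with all 38408 probe sets tested (adjusted p = 0.0891). Both GH3.3 decreases relative to ground passed in each of the 15 alternatives, and the difference between the in-flight groups did not pass in 8 of them.

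**Figure D1:**
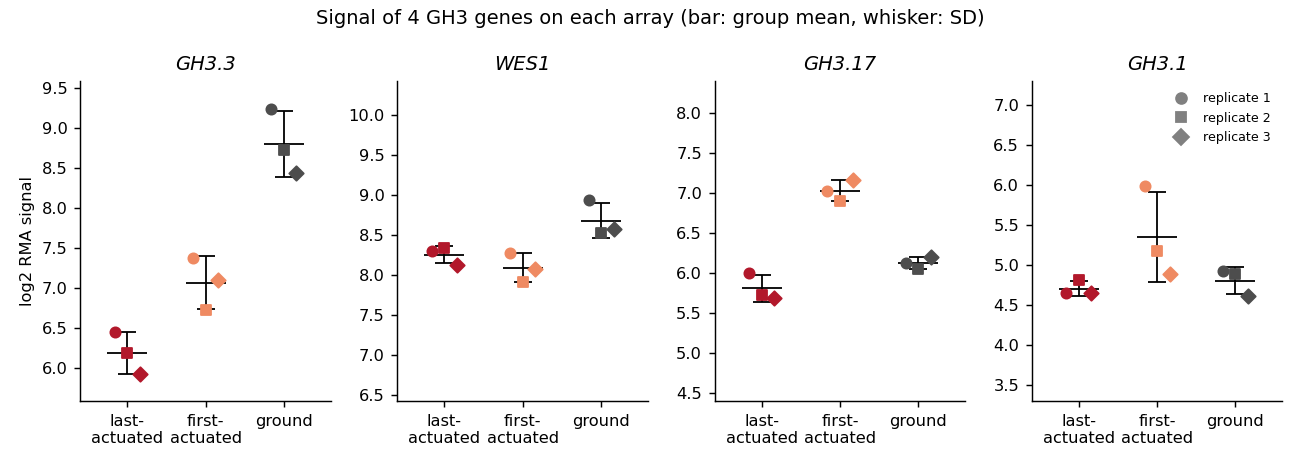
Log2 RMA signal (vertical axis, each panel spanning 4 log2 units) of GH3.3, WES1, GH3.17 and GH3.1 on each array, by group along the horizontal axis. Symbols are replicates, horizontal bars are group means and whiskers are SD. GH3.3 steps down to 6.19 in last-actuated and 7.07 in first-actuated roots, against 8.80 in ground roots, while GH3.17 is high at 7.03 in first-actuated roots alone among the 3 groups.

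WES1 encodes a GH3 enzyme that acts on auxin and is also known to use salicylic acid. It had values of 8.30, 8.33 and 8.13 in last-actuated roots, 8.28, 7.91 and 8.08 in first-actuated roots, and 8.93, 8.53 and 8.57 in ground roots. Each in-flight array lay below each ground array, and the in-flight groups overlapped. WES1 fell in first-actuated roots by 0.59 ± 0.13, to 0.665 of the ground level (95% interval 0.541 to 0.816, adjusted p = 0.0319). In last-actuated roots the change was -0.42 ± 0.13 and did not pass (adjusted p = 0.182, unadjusted p = 0.00958). The last-actuated roots differed from the first-actuated roots by 0.17 ± 0.13, with a 95% interval of -0.13 to 0.46 (adjusted p = 0.573). The change of WES1 was not shown to differ between the in-flight groups.

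The WES1 call was not kept in 8 of the 15 alternatives. It was lost without ground replicates 1 or 3, first-actuated replicates 2 or 3, or last-actuated replicates 1 or 2, each left out alone (adjusted p = 0.0509 to 0.109). The log2 change over all 9 such cases was -0.68 to -0.46. It stayed at -0.59 without a last-actuated replicate, since those arrays enter only the estimate of spread. The call was also lost with only the compared groups in the fit (adjusted p = 0.0914) and with all probe sets tested (adjusted p = 0.0665).

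GH3.17, whose enzyme favours glutamate as the amino acid joined to auxin, went the other way in first-actuated roots. Its values were 6.01, 5.73 and 5.69 in last-actuated roots, 7.03, 6.90 and 7.16 in first-actuated roots, and 6.12, 6.05 and 6.21 in ground roots. All first-actuated arrays stood above all others, and the last-actuated arrays lay just below the ground arrays without overlap. Relative to ground, GH3.17 rose in first-actuated roots by 0.90 ± 0.11, a 1.87-fold increase (95% interval 1.58 to 2.22, adjusted p = 0.00148). In last-actuated roots its change against ground was -0.32 ± 0.11, which did not pass (adjusted p = 0.241, unadjusted p = 0.0172). The last-actuated roots were lower than the first-actuated roots by log2 -1.22 ± 0.11 (0.43 of the first-actuated level, adjusted p = 0.000192). Both GH3.17 calls were kept without any 1 array and under each other setting tried.

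GH3.1, another auxin-conjugating member of the family, passed no comparison. It had 4.65, 4.82 and 4.66 in last-actuated roots, 5.99, 5.18 and 4.90 in first-actuated roots, and 4.93, 4.88 and 4.61 in ground roots. First-actuated replicate 1 stood apart, the SD was 0.094 in last-actuated, 0.57 in first-actuated and 0.17 in ground roots, and the first-actuated and ground arrays overlapped. All last-actuated arrays lay below all first-actuated arrays. The change in first-actuated roots relative to ground was 0.55 ± 0.23 (95% interval 0.038 to 1.06, adjusted p = 0.237, unadjusted p = 0.0375). Without first-actuated replicate 1 it was 0.23. In last-actuated roots it was -0.10 ± 0.23 relative to ground (95% interval -0.61 to 0.41, adjusted p = 0.909). Between last-actuated and first-actuated roots it was -0.65 ± 0.23 (adjusted p = 0.14, unadjusted p = 0.0176), and -0.33 without first-actuated replicate 1. The interval of last-actuated against ground roots includes a decrease as large as that of WES1 in first-actuated roots.

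Counted in either direction, 3 of the 4 genes were called in first-actuated roots relative to ground (GH3.17 higher, GH3.3 and WES1 lower), where 4.89% of all tested probe sets were called. In last-actuated roots relative to ground 1 of the 4 was called (GH3.3, lower), where 1.81% of all tested probe sets were. Between last-actuated and first-actuated roots 2 of the 4 were called (GH3.3 and GH3.17, both lower in last-actuated roots), where 6.73% of all tested probe sets were. Arrays of the compared groups did not overlap for 3 of the 4 genes in each comparison, against 20.4%, 16.6% and 21.8% of all tested probe sets. The 4 genes were chosen with earlier results known, so these counts describe them and say nothing of the family. Over all 6 measured GH3 genes, 3, 1 and 2 were called in the same order of comparisons, and arrays did not overlap for 3 of 6 in each. The median changes of the 4 genes were -0.02, -0.37 and -0.76, and those of the 6 genes 0.25, -0.21 and -0.41, so the median in first-actuated roots relative to ground turned sign with the genes included. Over all probe sets tested the medians were 0.0055, 0.0026 and -0.0012. By the moderated F test over the 3 groups, GH3.3 (adjusted p = 0.000275), GH3.17 (adjusted p = 0.000321) and WES1 (adjusted p = 0.0469) differed and GH3.1 did not pass (adjusted p = 0.2), where 7.65% of all tested probe sets were called.

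**Figure D2:**
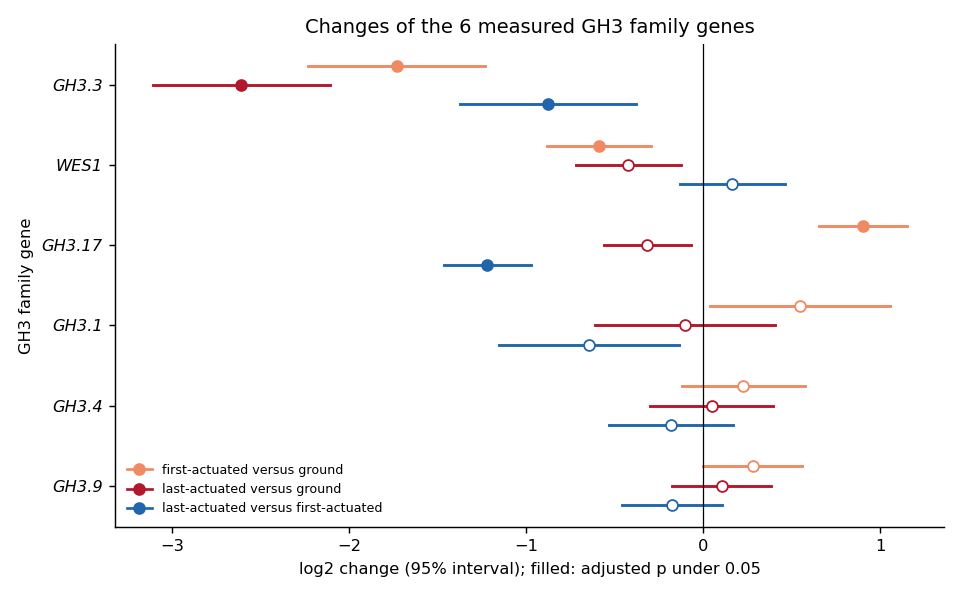
Log2 changes (horizontal axis) of the 6 measured GH3 family genes (vertical axis) in 3 comparisons, shown by colour. Points are limma estimates, lines are 95% intervals, and filled points had an adjusted p under 0.05. GH3.3 is negative in all 3 comparisons, while GH3.17 is at 0.90 in first-actuated roots relative to ground and at -1.22 in last-actuated relative to first-actuated roots.

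The family members also differed in how single arrays scattered around their group means. GH3.3 and WES1 scattered together, with a Pearson correlation of 0.91 between their deviations from the group means over 9 arrays. For GH3.3 the deviations reached 0.44 above and 0.36 below the ground mean, and for WES1 0.25 above and 0.15 below it, with ground replicate 1 highest for both. The deviations of GH3.17 correlated with those of GH3.3 at 0.40 and with those of WES1 at 0.29. Those of GH3.1 correlated with GH3.3 at 0.51, with WES1 at 0.55 and with GH3.17 at -0.27. These values describe arrays that share their tube within a group, and no test was made of them. Over the group differences as well, GH3.3 and WES1 correlated at 0.80, and GH3.3 and GH3.17 at 0.08. Among the 16722 probe sets paired with exactly 1 gene, WES1 held place 239 by this correlation with GH3.3. GH3.3 held place 192 by correlation with WES1. In the deviations, AT4G13030, a gene named below, reached 0.92 with GH3.3. How many probe sets scattered as closely with either gene was not counted.

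Of the other 15 GH3 family genes listed, GH3.4 and GH3.9 had a named probe set. Both lay below the median of all 9 arrays, so neither shows a clear signal in these roots. GH3.4 averaged 2.02 ± 0.31 in last-actuated, 2.20 ± 0.18 in first-actuated and 1.97 ± 0.12 in ground roots (SD, n = 3 each). GH3.9, annotated as a putative auxin-amido synthetase gene, averaged 2.22 ± 0.019, 2.40 ± 0.25 and 2.12 ± 0.14 in the same groups. Neither passed in any comparison by limma (adjusted p = 0.277 to 0.942, lowest unadjusted p = 0.0517). The other 13 were not analysed here, among them the auxin-inducible genes GH3.2 and DFL1 and the jasmonate-conjugating JAR1.

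The GH3 genes act beside other steps of the auxin pathway, and 20 of 138 listed auxin genes outside the family had a named probe set. Of these, 1 rose and 1 fell in first-actuated roots relative to ground, where 4.89% of all tested probe sets were called. None was called in last-actuated roots relative to ground by limma, where 1.81% of all tested probe sets were, with 6 of the 20 at an unadjusted p under 0.05, against 2273 of all 17481. Relative to first-actuated roots, last-actuated roots had 2 of these genes higher and 2 lower, where 6.73% of all tested probe sets were called. Their median changes were 0.03, -0.0045 and 0.02 in that order, near those of all probe sets. Of the 20 genes, 12 lay below the array median on all 9 arrays. Conjugate hydrolases, auxin response factors and transport genes had no named probe set, so these steps were not analysed here.

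Upstream of the GH3 enzymes, none of the 4 measured YUC genes, whose flavin monooxygenases make auxin, was called by limma. YUC6 had the largest change among them in last-actuated roots relative to ground, -0.37 ± 0.15 (adjusted p = 0.312), while YUC2 was at 0.23 and YUC11 at 0.27. These 3 of the 4 had an unadjusted p under 0.05 in that comparison, against 2273 of all 17481 tested probe sets. In first-actuated roots relative to ground 0 of the 4 did, against 18.4% of all, and between the in-flight groups 1 did, against 19.6%. Of the 4 YUC probe sets, 3 lay below the array median on all 9 arrays. The YUC6 mean of 3.07 in last-actuated roots also lay below the array medians. Among other inactivation enzymes, UGT74D1, a glucosyltransferase gene known to act on auxin, had 6.07, 6.23 and 6.12 in last-actuated roots, 5.60, 5.74 and 5.87 in first-actuated roots, and 6.01, 6.20 and 6.03 in ground roots. Its first-actuated arrays lay below all others. It was higher in last-actuated roots than in the first-actuated group by 0.40 ± 0.10 (adjusted p = 0.039), but a second, dimmer probe set of the gene gave 0.09 (adjusted p = 0.891). The call of the brighter probe set was lost in 7 of 9 cases with 1 array left out (adjusted p = 0.0549 to 0.13), without ground replicates 1 or 3, first-actuated replicates 1 or 2, or any last-actuated replicate, and with only the compared groups (adjusted p = 0.0709), all probe sets (adjusted p = 0.0697) or the other variance prior (adjusted p = 0.0524).

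Downstream, Aux/IAA proteins repress auxin-responsive transcription. Of the 8 measured genes, 1 was called between the in-flight groups, where 6.73% of all tested probe sets were, and 0 against ground. IAA18 was lower in last-actuated roots than in the first-actuated group by log2 -0.46 ± 0.11 (adjusted p = 0.0313). That call was lost without first-actuated replicates 1 or 2 or any last-actuated replicate (adjusted p = 0.0596 to 0.104), with only the compared groups (adjusted p = 0.0785) and with all probe sets (adjusted p = 0.0599). The other 7 Aux/IAA probe sets lay below the median of all 9 arrays. The receptor-side list held 1 measured gene, SKP2A, an F-box gene, which was not called in any comparison by limma (lowest unadjusted p = 0.613).

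Of 5 measured auxin-induced targets, LBD29, a lateral root transcription factor gene, fell in first-actuated roots relative to ground. It had 4.90, 5.00 and 5.25 in last-actuated roots, 4.81, 5.05 and 4.79 in first-actuated roots, and 5.63, 6.12 and 5.37 in ground roots, with each in-flight array below each ground array. Its change in first-actuated roots relative to ground was -0.82 ± 0.18 (adjusted p = 0.0261), and the call was lost without ground replicates 1 or 2 or first-actuated replicates 1 or 3 (adjusted p = 0.0549 to 0.0879), with only the compared groups in the fit (adjusted p = 0.0812) and with all probe sets tested (adjusted p = 0.0587). In last-actuated roots the change was -0.66 ± 0.18 (adjusted p = 0.114).

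XTH19, a xyloglucan-modifying enzyme gene, correlated with GH3.17 at 0.88 over the 9 arrays and at -0.42 in the deviations from the group means. It rose in first-actuated roots by 0.76 ± 0.16 relative to ground (adjusted p = 0.0208) and was lower in last-actuated roots than in the first-actuated group by log2 -1.10 ± 0.16 (adjusted p = 0.0024), but its means in all 3 groups lay below the array medians. The first of these calls was lost without any 1 ground replicate or without first-actuated replicates 1 or 2 (adjusted p = 0.0597 to 0.072), and with only the compared groups in the fit (adjusted p = 0.0511). HAT2, an auxin-responsive homeodomain gene, correlated with GH3.17 at -0.88 (0.13 in the deviations), with values of 9.73, 9.95 and 9.85 in last-actuated roots, 8.93, 8.75 and 8.81 in first-actuated roots, and 9.33, 9.06 and 9.60 in ground roots. It was higher in last-actuated roots than in the first-actuated group by 1.01 ± 0.13 (adjusted p = 0.00159). Against ground it was called in neither group (first-actuated adjusted p = 0.0604, last-actuated adjusted p = 0.104), and passed in first-actuated roots without ground replicate 2 (adjusted p = 0.0256), with the filter on dim probe sets (adjusted p = 0.0388) and with the other variance prior (adjusted p = 0.038), and without ground replicate 3 in last-actuated roots (adjusted p = 0.0406). LBD16 and PUCHI, which act in lateral root formation, passed in no comparison by limma (lowest unadjusted p = 0.0101). LBD16 went the opposite way to LBD29, with each in-flight array above each ground array. Against ground, LBD16 changed by 0.44 ± 0.14 in the first-actuated group (adjusted p = 0.111). The change of LBD16 in the last-actuated group was 0.26 ± 0.14 (adjusted p = 0.481). For PUCHI the changes against ground were 0.03 and 0.06 in the same order, and its arrays overlapped.

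**Figure D3:**
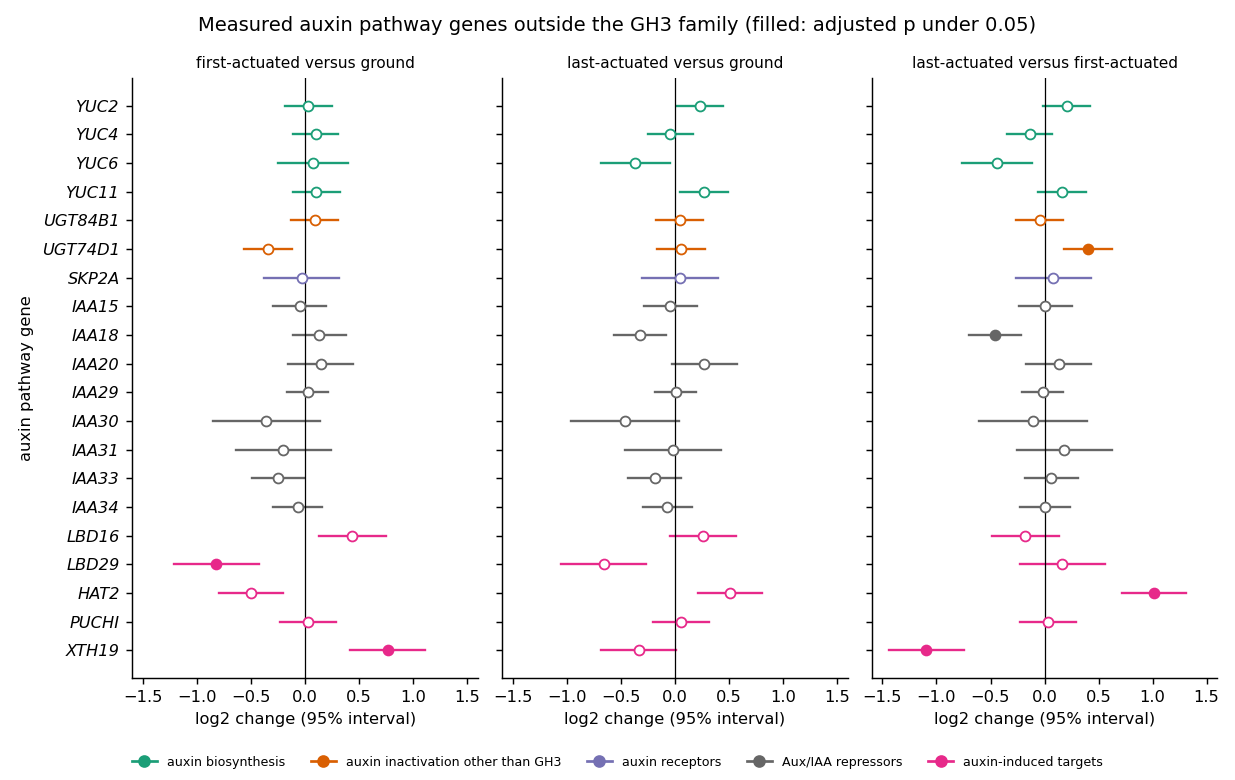
Log2 changes (horizontal axes) of the 20 measured auxin pathway genes outside the GH3 family (vertical axis), one panel per comparison, coloured by list. Lines are 95% intervals and filled points had an adjusted p under 0.05. LBD29 at -0.82 and XTH19 at 0.76 are filled in first-actuated roots relative to ground, and HAT2 at 1.01, UGT74D1 at 0.40, IAA18 at -0.46 and XTH19 at -1.10 between last-actuated and first-actuated roots.

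A leaf marker, LHB1B2, correlated with GH3.17 at 0.83 over the 9 arrays and at -0.32 in the deviations from the group means. The other measured leaf marker, RCA, correlated with GH3.17 at 0.19 over the arrays and at 0.15 in the deviations. Of 14 leaf and shoot markers, RCA and LHB1B2 had a named probe set. LHB1B2, a light-harvesting protein gene, had 5.71, 6.15 and 5.95 in last-actuated roots, 7.15, 8.45 and 8.11 in first-actuated roots, and 7.22, 6.89 and 6.88 in ground roots. It was lower in last-actuated roots than in the first-actuated group by log2 -1.96 ± 0.28 (adjusted p = 0.00224), and its changes against ground were 0.90 ± 0.28 in first-actuated roots (adjusted p = 0.0974) and -1.06 ± 0.28 in last-actuated roots (adjusted p = 0.102). RCA, the rubisco activase gene, averaged 8.34 ± 0.074 in last-actuated, 8.32 ± 0.077 in first-actuated and 8.08 ± 0.090 in ground roots (SD, n = 3 each), and was not called by limma (lowest unadjusted p = 0.015). The log2 of their summed signal was 8.57 to 8.62 in last-actuated, 8.91 to 9.36 in first-actuated and 8.54 to 8.70 in ground roots. Both markers lay above the median of each array. The part of leaf RNA in the GH3.17 result was not tested. The root hair marker EXPA7 had 5.02 to 5.51 in last-actuated, 4.53 to 4.87 in first-actuated and 5.09 to 5.54 in ground roots, and its changes did not pass (adjusted p = 0.0584 in first-actuated roots relative to ground and 0.0527 between the in-flight groups). The other measured root marker, EXPA18, averaged 6.13 in last-actuated, 6.09 in first-actuated and 6.09 in ground roots. Its changes in the same comparisons were 0.0022 and 0.04 (adjusted p = 0.997 and 0.924). The log2 of the summed signal of both root markers was 6.47 to 7.01 in last-actuated, 6.48 to 6.67 in first-actuated and 6.72 to 6.78 in ground roots, and the part of epidermal cell share in the GH3 results was not tested.

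For each of the 4 genes, the 5 named genes of highest Pearson correlation over the 9 arrays were taken as those of most similar pattern, as a description in which arrays of a group share a tube. For GH3.17 they were AT5G20700 (0.99), AT2G39650 (0.98), AT3G02480 (0.98), AT1G11670 (0.98) and GH9C2 (0.98), a glycosyl hydrolase gene. Because such genes were picked on these same arrays, a group pattern shared with the GH3 gene follows from the choice and is no finding. AT5G20700 averaged 5.84 in last-actuated, 7.50 in first-actuated and 6.35 in ground roots. All 5 rose in first-actuated roots relative to ground (by 0.56 to 1.74) and were lower in last-actuated roots than in the first-actuated group (by log2 -2.74 to -0.81). In the deviations from the group means they correlated with GH3.17 at 0.71, 0.32, 0.72, 0.66 and 0.09, in the order named.

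For GH3.3 the genes were AT4G13030 (0.98), AT1G15260 (0.97), AT5G23430 (0.96), AT5G01980 (0.96) and AT5G35688 (0.95). AT1G15260 fell by 1.35 in last-actuated roots and by 1.12 in first-actuated roots relative to ground, and AT5G35688 fell by 0.97 and 0.73 in the same groups. The in-flight means of both lay below the array medians, at 2.39 in last-actuated and 2.62 in first-actuated roots for AT1G15260 and at 2.69 and 2.94 for AT5G35688. AT5G01980 fell in last-actuated roots by 0.64, and AT4G13030 and AT5G23430 were called in no comparison by limma. Between last-actuated and first-actuated roots limma called 0 of the 5 (adjusted p = 0.12 to 0.795), with 3 at an unadjusted p under 0.05.

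For WES1 the genes were AT1G19960 (0.96), AT3G59490 (0.96), AT3G10770 (0.95), CLE20 (0.94), which encodes a CLE signalling peptide, and AT5G16110 (0.94). CLE20 fell in first-actuated roots by 0.84 relative to ground (adjusted p = 0.0125), and the other 4 were not called in that comparison (adjusted p = 0.0902 to 0.434). For GH3.1 they were AT2G02650 (0.97), AT4G09440 (0.97), cdc2cAt (0.96), AT3G19740 (0.96) and AT1G68238 (0.95). None of these was called in any comparison by limma, with 1 at an unadjusted p under 0.05 in first-actuated roots relative to ground and 0 in the other comparisons. In 4 of these 5 genes, AT3G19740 being the exception, all group means lay below the array medians. All 5 were highest on first-actuated replicate 1, the array that stood apart for GH3.1.

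**Figure D4:**
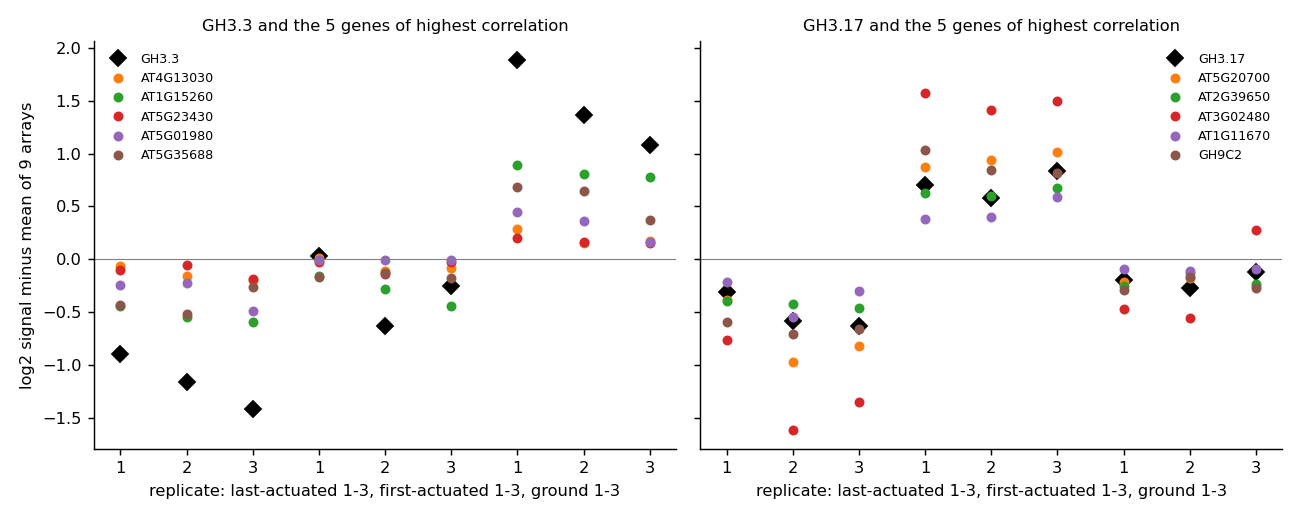
Log2 signal minus the mean of 9 arrays (vertical axis) for GH3.3 (left) and GH3.17 (right), black diamonds, with the 5 genes of highest correlation as coloured circles, on each array along the horizontal axis. The GH3.3 group separates ground arrays from in-flight arrays, and the GH3.17 group separates first-actuated arrays from the others, with AT3G02480 spread most widely. The genes shown as circles were picked on these same arrays, so the shared separation follows from the choice.

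**Figure D5:**
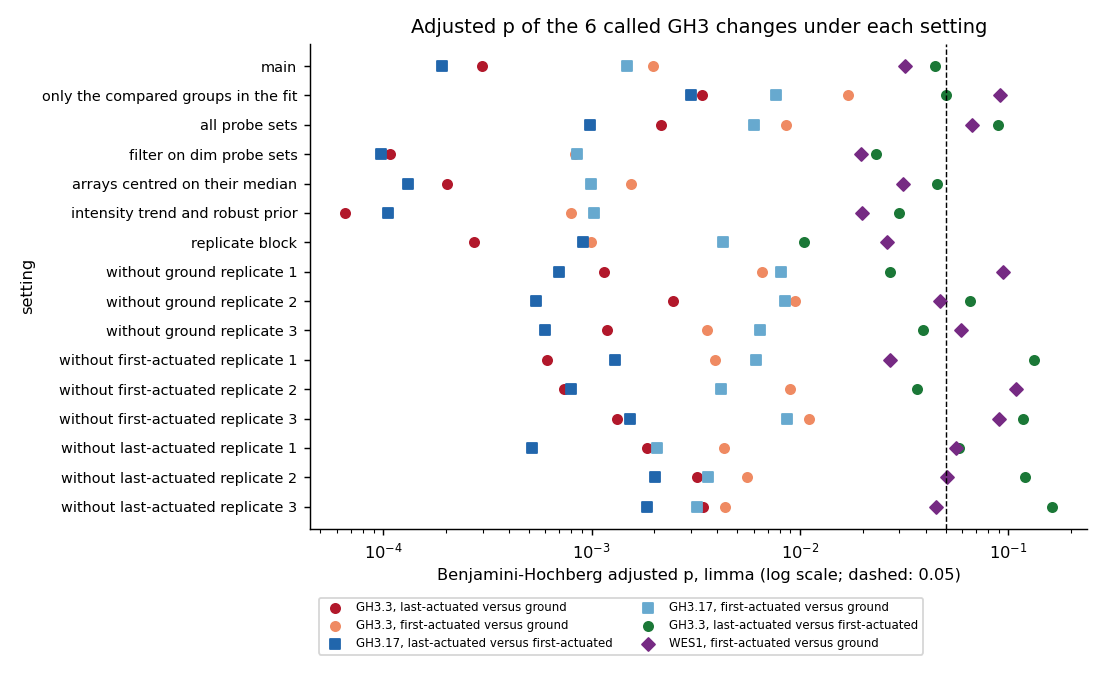
Adjusted p (horizontal log axis) of the 6 called changes of GH3 genes under each setting of the test (vertical axis), with the threshold of 0.05 dashed. The GH3.3 changes against ground and both GH3.17 changes stay below 0.05 throughout, with a highest adjusted p of 0.017, while the WES1 change and the GH3.3 difference between in-flight groups cross it in 8 of 15 alternatives each.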

How the data were processed

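The deposited values are log2 signals that the authors made with RMA in the oligo package, per the submitters' processing notes, which also name limma, R 4.0.0 and TAIR10. RMA as usually run removes a change shared by most transcripts. Probe sets took names from the platform annotation, with symbols updated from a RefSeq table of assembly TAIR10.1. Of 38408 probe sets, 16722 were paired with 1 gene (16574 matched in RefSeq), 759 with several and 20927 were unnamed here. Neither probe sequences nor detection calls, slides or scan dates entered, so cross-hybridisation between GH3 genes, signal over background and batch were not assessed. The planned description of promoter motifs and protein identity was not made.

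All 9 arrays entered limma 3.58.1 in R 4.3.3 (lmFit, eBayes, no covariate) on the 17481 probe sets that had 1 or more genes. Probe sets were called at a Benjamini-Hochberg adjusted p under 0.05. The number of arrays limits precision. For first-actuated against ground, data were simulated for 17481 probe sets, of which 17281 were left unchanged. In these data 21 of 50 changes of 0.5 and 46 of 50 changes of 1 were recovered, with 9 false calls. The real comparison called 855 probe sets. Adjusted p-values depend on how many probe sets change, so the simulated rates need not hold for the real arrays.

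The 4 genes and the lists were chosen with earlier results of these data known. List members were kept where RefSeq gave the locus the listed symbol, which dropped 13 of 157. Genes named are the 4 genes, other measured GH3 genes, listed auxin genes called in any comparison and the 5 of highest correlation per gene, and YUC6, SKP2A, LBD16 and PUCHI, and the markers, were added to show their lists. Of a gene with several probe sets the brightest was used. Alternatives were the compared groups alone, all probe sets, a filter on dim probe sets, median centring, another variance prior, the replicate number as a block and leaving out each array.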

Additional observations from a re-analysis of the deposited data

Results flagged for a closer look

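The change against ground differed between last-actuated and first-actuated roots for 2 GH3 genes and 4 other named auxin genes, by the limma comparison of the in-flight groups. In that comparison 6.73% of all tested probe sets were called, and the 4 other genes were named because they were called. GH3.3 differed by -0.88 on the log2 scale (adjusted p = 0.0445), the decrease being larger in last-actuated roots. GH3.17 differed by -1.22 (adjusted p = 0.000192), with a change against ground of -0.32 in last-actuated and 0.90 in first-actuated roots. HAT2 differed by 1.01, XTH19 by -1.10, IAA18 by -0.46 and UGT74D1 by 0.40. The call was lost in 8 of 15 alternatives for GH3.3, in 8 for IAA18 and in 11 for UGT74D1. For GH3.17, HAT2 and XTH19 it was kept in each alternative that held the gene. The XTH19 means lay below the array medians, and a second probe set of UGT74D1 gave 0.09 (adjusted p = 0.891).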

How the results depend on the processing

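Over 15 alternatives and 12 values (4 GH3 genes, 3 comparisons), 164 of 180 kept their direction and their side of the threshold, 16 kept the direction and lost the call, and 0 changed direction. The 16 concern WES1 in first-actuated roots relative to ground and GH3.3 between last-actuated and first-actuated roots. The WES1 change stayed at -0.59 with only the compared groups in the fit (adjusted p = 0.0914) and with all probe sets (adjusted p = 0.0665), and was -0.68 to -0.46 with 1 array left out. The GH3.3 difference stayed at -0.88 under the same settings (adjusted p = 0.0503 and 0.0891) and was -1.05 to -0.72 with 1 array left out. The cause of each loss was not tested. Of the 306 values for 7 other named genes, 31 lost a call, 4 gained one and 4 changed direction. The last were uncalled values of GH3.4, which with 1 array left out ran from -0.043 to 0.23 in last-actuated roots relative to ground, -0.018 without ground replicate 2, and from -0.28 to 0.0003 between last-actuated and first-actuated roots. In first-actuated roots relative to ground 855 probe sets were called, 512 with only the compared groups, and 549 to 807 with 1 array left out, the lowest without ground replicates 1 (549) and 2 (557). In last-actuated roots relative to ground 316 were called, and 179 to 333 with 1 array left out, with 202 on omitting ground replicate 2, 179 on omitting last-actuated replicate 2 and 182 on omitting last-actuated replicate 3. Between the in-flight groups 1177 were called, 1794 over all probe sets, and 724 (without last-actuated replicate 3) to 1119 with 1 array left out. Over all tested probe sets replicate numbers did not pair the arrays: deviations of same-numbered arrays correlated at -0.12 to 0.057. For GH3.3, replicate 1 was the highest array in each group. With the replicate block, the SE of its change in first-actuated roots relative to ground was 0.14 instead of 0.22. With the replicate number as a block, 723, 247 and 1035 probe sets were called in the 3 comparisons. The block changed no call of the 4 GH3 genes, and ended those of UGT74D1 (adjusted p = 0.0509) and IAA18 (adjusted p = 0.069) between the in-flight groups. GH3.4, GH3.9 and XTH19 lay under the dim filter and have no value there. Signal over background was not known, which limits the dim probe sets most.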
